A study of Mus musculus with 2 samples.

Results

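Annotated transcripts of coding genes that consist of a single exon were followed in long-read RNA sequencing of mouse gastrocnemius, a calf muscle. A transcript model was taken where the deposited table calls it annotated, gives it 1 exon and its gene is protein coding, with mitochondrial and spike-in sequences left out. Of 18942 annotated models with a read in either library, 637 met the rule. They were split by the annotation: 285 models belonged to 283 intronless genes, coding genes with no multi-exon annotated model, and 352 belonged to 345 mixed genes, coding genes that also have a multi-exon annotated model. The series holds 1 group, gastrocnemius of male B6CASTF1/J F1 mice aged 25 days with no treatment named, and 2 biological replicates. The labels name a separate animal for each replicate but give both the same donor record, so the spread between the libraries may be partly technical. Total RNA was the molecule, and 2 µg was the starting quantity of each library.

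Most mammalian coding genes are spliced. Intronless coding genes include immediate early transcription factors, replication-dependent histones, many G protein-coupled receptors, and copies of spliced messages that were reverse transcribed into the genome. Most messages end in a poly(A) tail, added after a signal hexamer, whereas replication-dependent histone messages end after a conserved stem-loop and carry no tail. A single-exon model of a mixed gene can be a full coding message, or, where the annotation calls it retained_intron, a stretch of transcript that reads through an intron.

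The last signal hexamer of some abundant members is shown first, since it is the sequence feature that most detected members carried. Only models with a hexamer near their end are shown. Abundant models without one, among them those of Gm11273, Fem1a and Jund, were left out. The lines are a selection and not a ranking by level. The letters are GENCODE M21 transcript sequence on GRCm38, read 5′ to 3′ on the transcript's strand, with AATAAA or ATTAAA in capitals. The first 7 models belong to intronless genes, and the last 2 are retained_intron models of mixed genes. The windows lie at chr2:167690384-167690413 (+), chr16:31947050-31947079 (-), chr17:67630964-67630993 (-), chr6:86524493-86524522 (-), chr15:75745499-75745528 (-), chr7:127271879-127271908 (-), chr13:113662899-113662928 (-), chr9:121712791-121712820 (+) and chr9:108501668-108501697 (+), in the order of the lines.
Cebpb-201: ttttAATAAActtttttggagaatgtttaa
0610012G03Rik-201: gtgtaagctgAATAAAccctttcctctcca
Lrrc30-201: tcagggAATAAAcatgatggtctcagtgtg
Pcbp1-201: aagaATTAAAcaaatggattggttaaaaat
Mafa-201: aaaaAATAAAtgtttagatccaaaagtcat
Sephs2-201: taactaAATAAAagggactttgttggaaaa
Hspb3-201: gaggATTAAAaaaaaccaaatgtatccacc
Ss18l2-207: aaatatttattAATAAAacagatcccacgg
Usp19-211: aaagtgttAATAAAatgagtattcaggccc

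Histone messages are shown by the stem-loop instead, because models of this family differ in how far they run past it. Capitals mark the match to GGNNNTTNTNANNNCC. The windows lie at chr3:96239777-96239806 (-), chr13:23531451-23531480 (+), chr11:58955165-58955194 (+) and chr13:23739505-23739534 (+).
Hist2h2aa2-201: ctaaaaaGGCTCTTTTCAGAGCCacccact
Hist1h4h-201: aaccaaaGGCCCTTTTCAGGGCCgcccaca
Hist3h2a-201: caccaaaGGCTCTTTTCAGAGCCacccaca
Hist1h1c-201: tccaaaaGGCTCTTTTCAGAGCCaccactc
The annotated model ended 35 bases past the match in Hist2h2aa2 and 46 bases past it in Hist1h4h. It ran on for 1643 bases in Hist3h2a and for 840 bases in Hist1h1c.

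Several intronless genes are near-identical to a spliced gene, and a stretch of 60 coding bases is shown for 2 such pairs. A stretch does not stand for the whole model: over its full length Gm11273 is 94.4% identical to Cox5b. Capitals mark the bases that differ, 2 in each stretch. The copies lie at chr13:21501176-21501235 (-) for Gm11273 and chr13:21495306-21495365 (+) for AK157302, and each is set beside the matching stretch of its spliced counterpart's transcript.
Gm11273-201: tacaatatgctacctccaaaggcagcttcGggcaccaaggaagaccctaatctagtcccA
Cox5b: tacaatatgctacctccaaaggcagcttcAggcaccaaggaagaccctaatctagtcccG
AK157302-201: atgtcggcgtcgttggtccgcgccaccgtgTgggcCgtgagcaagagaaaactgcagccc
Isca1: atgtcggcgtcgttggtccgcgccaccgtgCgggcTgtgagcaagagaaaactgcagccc

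Levels are given as CPM, the reads on a model per 1000000 reads assigned to annotated genes of the library. Gene-assigned reads numbered 1215785 in replicate 1 and 1549606 in replicate 2, out of 1292409 and 1703457 reads in all. A read was worth 0.823 CPM in replicate 1 and 0.645 CPM in replicate 2, and with 0 reads a model could still lie at 2.47 CPM or 1.94 CPM, taking 3 counts as the limit. All 5 muscle markers were abundant. Ckm (68718 CPM in replicate 1 and 69403 CPM in replicate 2) and Acta1 (71337 and 65981 CPM) were close between the libraries, while Tnnt3 (1964 and 3915 CPM), Tnnc2 (24025 and 49836 CPM) and Mylpf (19005 and 31911 CPM) were lower in replicate 1. Of the markers of other cell types, Alb, Apoa1, Nppa and Snap25 had 0 reads in both libraries, Myh6 of heart had 4 and 2, Rbfox3 of neurons had 1 and 0, Krt10 of skin had 5 and 21, and Hbb-bs of red blood cells had 140 and 278. The libraries differed in read classes: genomic reads, which are unspliced or partly spliced over a gene, were 2.28% of the mouse total for replicate 1 and 6.52% for replicate 2.

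Intronless genes gave a small and similar share of the transcriptome in both animals. Their single-exon models held 4989 of the gene-assigned reads in replicate 1, or 0.410% (95% Clopper-Pearson interval 0.399 to 0.422), and 6969 in replicate 2, or 0.450% (0.439 to 0.460). The mean share was 0.430% ± 0.0278 (SD, n = 2). Mixed genes held 1370 reads, or 0.113%, on single-exon models in replicate 1, and 2930 reads, or 0.189%, in replicate 2, a mean of 0.151% ± 0.0540 (SD, n = 2). The intervals of the libraries did not overlap in either class. All such intervals cover counting error only.

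Fewer intronless genes were seen than genes with introns. Reads on their single-exon models were found for 226 intronless genes in replicate 1 and for 249 in replicate 2, and 283 of 1331 annotated (21.3%) had a read in at least 1 library. Of the other coding genes, those with a multi-exon annotated model, 10413 of 20684 (50.3%) had a read. In both libraries together, 192 intronless genes (14.4%) and 8055 of the others (38.9%) were found. The median level of those found in both was 7.40 CPM in replicate 1 and 7.74 CPM in replicate 2 for intronless genes, against 11.5 and 6.45 CPM for the others. These shares describe 2 libraries of unequal depth and were not tested.

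The intronless gene with the highest mean level encodes a bZIP transcription factor, and other genes of this type were found at lower levels. Cebpb, a C/EBP factor of inflammatory and metabolic gene control (chromosome 2, 167688915 to 167690418, plus strand), had 463 reads or 381 CPM in replicate 1 and 410 reads or 265 CPM in replicate 2. Jund, an AP-1 subunit (chromosome 8, 70698949 to 70700616), had 188 CPM in replicate 1 and 135 CPM in replicate 2. Mafa, a large Maf factor (chromosome 15, 75745490 to 75748228), had 132 and 50.3 CPM, and Jun had 46.1 and 20.0 CPM. All 4 were higher in replicate 1 when scaled to gene-assigned reads. Under TMM or DESeq2 scaling only Mafa and Jun of these 4 still passed, with Cebpb at a log2 ratio of 0.12 under TMM and 0.17 under DESeq2 factors.

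Of 9 annotated intronless genes of the AP-1, C/EBP and immediate early list, 8 were found, with 784 CPM in replicate 1 and 502 CPM in replicate 2 summed. Their 7 tested models were compared between the libraries with Fisher's exact test (two-sided), which set reads on the model against the remaining gene-assigned reads. Adjustment was by Benjamini-Hochberg over all 7284 annotated models with 10 or more reads. At an adjusted p of 0.05, 4 models were higher in replicate 1, 0 were lower and 3 did not pass. Among all 7284 tested models 46.3% passed, 31.2% higher in replicate 1 and 15.1% lower. The log2 ratio of replicate 1 over replicate 2, taken on CPM + 1, was 1.37 ± 0.20 (counting SE) for Mafa, with an adjusted p of 8.84e-12 by this exact test, and 0.52 ± 0.10 for Cebpb. Ier2, an immediate early gene, had 19.7 CPM in replicate 1 and 12.9 CPM in replicate 2 and did not pass. A result of this test says that these 2 libraries differ by more than counting error, and nothing of a condition.

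Other abundant intronless genes had varied roles. Fem1a, a substrate receptor of a cullin ubiquitin ligase (chromosome 17, 56256810 to 56263610), had 235 CPM in replicate 1 and 141 CPM in replicate 2. Sephs2, which makes the selenium donor for selenoproteins (chromosome 7, 127271879 to 127274055), had 102 and 58.7 CPM. Both were higher in replicate 1, with log2 ratios of 0.73 ± 0.13 and 0.79 ± 0.20, and Sephs2 did not pass under TMM or DESeq2 scaling. Pcbp1, a poly(C)-binding protein (chromosome 6, 86524492 to 86526321), had 102 CPM in replicate 1 and 83.2 CPM in replicate 2. Lrrc30, a leucine-rich repeat gene (chromosome 17, 67630964 to 67632723), had 114 and 88.4 CPM. Neither Pcbp1 nor Lrrc30 passed the threshold. The uncharacterised 0610012G03Rik (chromosome 16, 31947050 to 31948494) was lower in replicate 1, with 114 CPM against 243 CPM in replicate 2.

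**Figure D1:**
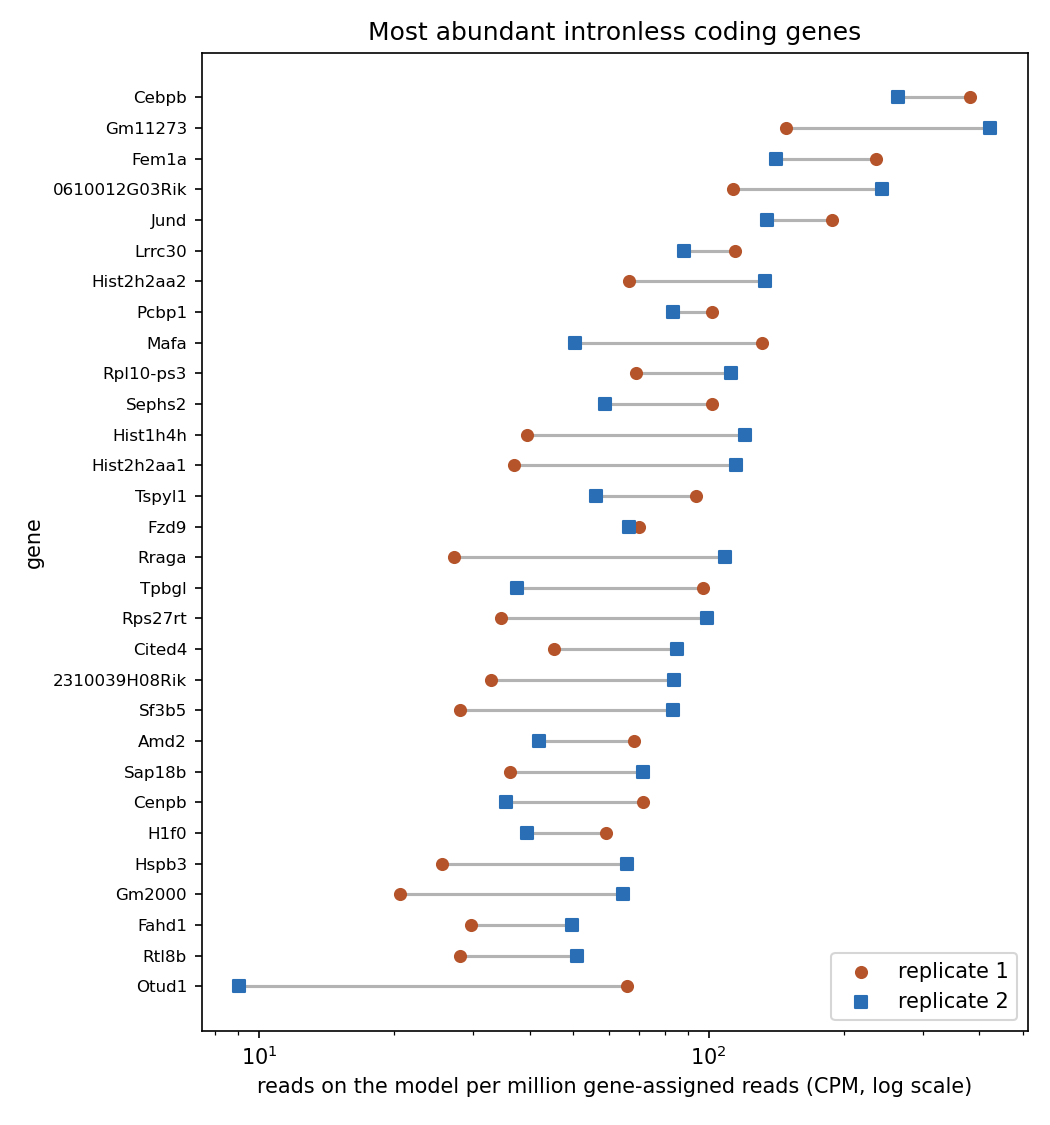
Levels of the 30 intronless coding genes with the highest mean CPM, on a log axis, with a circle for replicate 1 and a square for replicate 2 and a line joining them. Cebpb stood at 381 CPM in replicate 1 and 265 CPM in replicate 2, and the widest of these gaps was that of Otud1, at 65.8 and 9.03 CPM.

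The plot of levels shows that the order of genes was not the same in the libraries: Cebpb was the highest in replicate 1, and Gm11273 in replicate 2. The 10 models with most reads held 39.3% of intronless reads in replicate 1 and 39.9% in replicate 2. At the low end, 46 of 228 models in replicate 1 and 68 of 251 in replicate 2 rested on 1 read.

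Replication histones had lower levels in replicate 1 under each scaling. Of 62 annotated intronless genes of this family 17 were found, with 246 reads or 202 CPM in replicate 1 and 734 reads or 474 CPM in replicate 2. Of 6 tested models 0 were higher in replicate 1, 4 were lower and 2 did not pass, beside 15.1% lower over all tested models and 654 of 1210 lower over those of up to 1000 bases. Under TMM and DESeq2 factors 5 were lower, beside 22.9% and 20.9% of all models. Hist2h2aa2, an H2A gene (chromosome 3, 96239749 to 96240276), had 66.6 CPM in replicate 1 and 134 CPM in replicate 2, and Hist1h4h, an H4 gene (chromosome 13, 23531050 to 23531519), had 39.5 and 121 CPM. Hist3h2a, whose model runs far past the stem-loop, had 18.1 CPM in replicate 1 and 49.0 CPM in replicate 2. The linker histone gene Hist1h1c had 25.5 and 28.4 CPM and did not pass. A stem-loop match after the coding sequence was present in 15 of the 17 detected models (88.2%), against 3.24% of all annotated single-exon models of coding genes, which were searched after the coding sequence or, where none is annotated, throughout. In 6 of the 17 the model ended within 100 bases of it. Hist2h2aa2 and Hist2h2aa1 are 100% identical over the aligned stretch and lie side by side, so reads cannot be given to either with certainty.

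Intronless receptors and channels differed in level. Of 38 annotated intronless G protein-coupled receptor genes outside the chemosensory families, 15 were found, with 150 CPM in replicate 1 and 125 CPM in replicate 2 summed. Fzd9, a Wnt receptor, had 69.9 and 66.5 CPM, a log2 ratio of 0.07 ± 0.21 that did not pass. Of the 5 tested receptors 2 were higher in replicate 1, 0 were lower and 3 did not pass, whereas TMM gave 0 higher and 1 lower and DESeq2 factors gave 0 and 0. Over all tested models 31.2% were higher and 15.1% lower. The shares were 20.6% and 22.9% under TMM, and 20.4% and 20.9% under DESeq2 factors. Of 4 annotated intronless potassium channel genes 3 were found, led by Kcne1l at 19.7 CPM in replicate 1 and 18.7 CPM in replicate 2. Protocadherins had 6 of 18 genes found, with 4.11 and 4.52 CPM summed.

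Zinc finger, BTB and kelch genes had 6 of 8 intronless members found, with 71.6 CPM in replicate 1 and 29.7 CPM in replicate 2. Of 4 tested 2 were higher in replicate 1, 0 were lower and 2 did not pass, under all 3 scalings. The share of all tested models that was higher was 31.2%, or 20.6% under TMM and 20.4% under DESeq2 factors. Heat shock genes had 5 of 7 found. Hspb3, a small heat shock protein of muscle (chromosome 13, 113662896 to 113663676), was lower in replicate 1, with 25.5 CPM against 65.8 CPM in replicate 2. Hspa1a, an inducible chaperone, was higher in replicate 1, with 10.7 CPM against 2.58 CPM in replicate 2, but did not pass under TMM or DESeq2 scaling and is near-identical to Hspa1b (99.2%). Dnajc30, a J-domain protein of mitochondria, had 21.4 and 25.2 CPM and did not pass.

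Developmental and tissue-restricted families were barely detected. SOX factors had 2 of 6 intronless genes found, FOX factors 2 of 13, and POU, bHLH and homeobox factors 1 of 14, and none of these 5 models had enough reads for the test. Sox4 led them with 6 reads in replicate 1 and 3 in replicate 2. Chemosensory receptors had 0 of 222 intronless genes and 0 of 1058 mixed genes with a read on a single-exon model. Type I interferons had 0 of 17 intronless genes, and keratin-associated proteins had 0 of 53 intronless and 0 of 7 mixed genes. A gene of these families could still lie below the limits of 2.47 CPM in replicate 1 and 1.94 CPM in replicate 2.

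Over all tested members the classes differed in their counts. Of 201 tested, 27 were higher in replicate 1, 57 were lower and 117 did not pass. The shares over all tested annotated models were 31.2% higher and 15.1% lower. Of 138 intronless models 24 (17.4%) were higher, 28 (20.3%) were lower and 86 did not pass, and the median log2 ratio was 0.07, against 0.39 over all tested models. Of 63 models of mixed genes 3 (4.76%) were higher, 29 (46.0%) were lower and 31 did not pass, with a median of -0.94. Within 2-fold of equal CPM + 1 lay 65.9% of intronless and 44.4% of mixed models, against 54.1% of all tested models.

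Scaling moved these splits. TMM lowered every log2 ratio by 0.41 and DESeq2 size factors lowered it by 0.35. Under TMM 12 intronless models were higher in replicate 1 and 39 were lower, and the median turned to -0.33, while mixed genes gave 3 and 32. Under DESeq2 factors the counts were 12 and 36 for intronless and 3 and 32 for mixed models, and the intronless median was -0.28. Over all tested models TMM called 20.6% higher in replicate 1 and 22.9% lower, and DESeq2 factors called 20.4% and 20.9%. With dispersion set in place of counting error, edgeR's exact test at a coefficient of variation of 0.2 called 12 members higher in replicate 1 and 27 lower, against 16.3% and 5.44% of all models (21.7% in all), and at 0.4 it called 0 members, against 0.508% and 0.0137% of all models (0.522% in all). At 0.4, 26 of the 201 members (12.9%) had an unadjusted p under 0.05, near the share over all models, 1011 of 7284 (13.9%). Whole-gene reads called 96 of the members' genes higher and 84 lower, against 26.3% and 17% of all genes (43.3% in all). The intronless median has no fixed sign, whereas the mixed median was negative under all 3 scalings.

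Length moved with the ratio of intronless models. Those of up to 1000 bases had a median log2 ratio of -0.99 (n = 27), with 0 higher in replicate 1 and 15 lower, a share near that of all tested models of this length, of which 654 of 1210 were lower. Those above 1000 and up to 2000 bases had -0.19 (n = 46), those above 2000 and up to 3000 bases had 0.24 (n = 33), and those over 3000 bases 0.73 (n = 32), with 13 higher and 1 lower, beside 1423 higher and 66 lower of 2264 over all models of this length. Under TMM the intronless medians were -1.40, -0.59, -0.17 and 0.32 from the shortest range to the longest, so the range above 2000 and up to 3000 bases changed sign. All tested models gave -1.03, -0.09, 0.77 and 1.55 over the same lengths. Spike-in RNA, scaled to spike-in reads, gave -0.23 up to 1000 bases (n = 24) and 0.54 above that and up to 2000 bases (n = 18). The part of length in the differences of single genes was not tested. The read-weighted mean length of intronless models was 2343 bases in replicate 1 and 1744 bases in replicate 2.

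**Figure D2:**
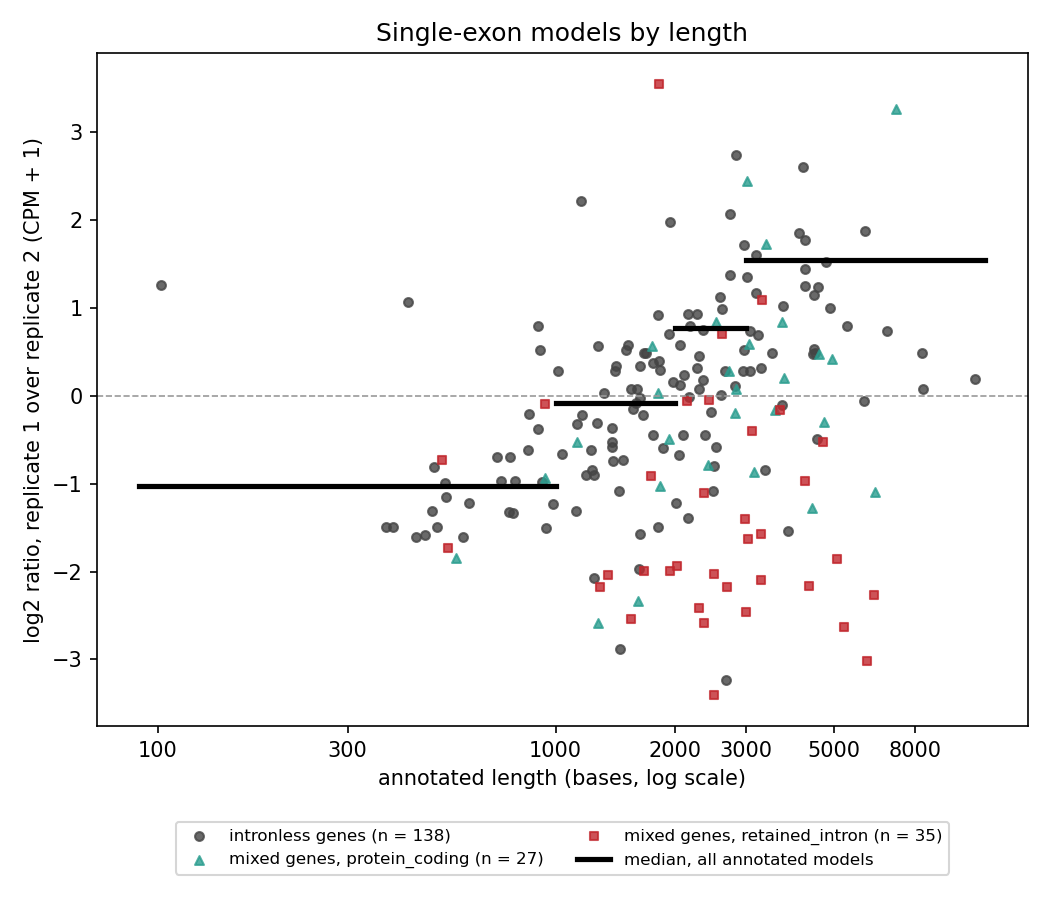
Log2 ratio of replicate 1 over replicate 2 (CPM + 1) against annotated length (log axis) for each tested model of an intronless gene, and for each protein_coding or retained_intron model of a mixed gene. Black bars are medians of all annotated models per length range, from -1.03 to 1.55. Intronless models move up with length, from a median of -0.99 to 0.73, while most retained_intron models lie below 0 at every length.

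The 5 largest ratios among intronless models past the threshold with 20 or more reads all passed under TMM and DESeq2 scaling too. Otud1, a deubiquitinase with a model of 2832 bases, had 80 reads or 65.8 CPM in replicate 1 and 14 reads or 9.03 CPM in replicate 2 (log2 ratio 2.73 ± 0.42). Klhl9, a kelch adaptor of a ubiquitin ligase, had 24.7 CPM in replicate 1 and 3.23 CPM in replicate 2, Gas1, a membrane protein of hedgehog signalling, had 39.5 and 7.74 CPM on its second model, and Irf2bp1, a transcriptional corepressor, had 41.1 and 9.03 CPM. Klhl34 had 15.6 and 3.23 CPM. The Gas1 model, at 1155 bases, is short beside the others, and it overlaps another annotated gene, as does that of Klhl9.

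At the other end stood Hrct1, with 3 reads or 2.47 CPM in replicate 1 and 38 reads or 24.5 CPM in replicate 2 (log2 ratio -2.88 ± 0.87). Rraga, a Rag GTPase that activates mTORC1 (chromosome 4, 86575668 to 86577285), had 27.1 CPM in replicate 1 and 109 CPM in replicate 2 (log2 ratio -1.97 ± 0.27, adjusted p = 1.53e-15 by the exact test). Hist2h2aa1 had 37.0 and 115 CPM. Gm2000 had 20.6 and 64.5 CPM and is near-identical to Rpl35, a ribosomal protein gene. Gm10358 had 2.47 and 13.6 CPM and is near-identical to Gapdh, a glycolytic enzyme gene. Sf3b5, a splicing factor subunit outside the naming rule, had 28.0 CPM in replicate 1 and 83.2 CPM in replicate 2. Its annotated model is 3841 bases long, with a coding sequence of 258 bases and a 3′ UTR of 303 bases.

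Near-identical genes hold many of the short intronless models. A match of 90% identity or more over at least 50% of the model, on the same strand, was found for 34 of the 138 tested. These 34 had a median length of 935 bases and held 19.7% of intronless reads in replicate 1 and 35.6% in replicate 2. Of them 3 were higher in replicate 1 and 15 were lower, with a median log2 ratio of -0.87. The 104 others had 21 higher and 13 lower, a median length of 2169 bases and a median log2 ratio of 0.28. Over all tested models 31.2% were higher and 15.1% lower, with a median of 0.39, and TMM gave 20.6% and 22.9%. Of all tested models of up to 1000 bases 654 of 1210 were lower. TMM gave 0 higher and 21 lower among the 34, and 12 higher and 18 lower among the 104, whose median turned to -0.12, and DESeq2 factors turned it to -0.07. The parts of length and of read assignment in this difference were not tested.

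In the pairs with most reads the copy and its counterpart were mostly both lower in replicate 1 by read count. Gm11273 (chromosome 13, 21501029 to 21501418) had 181 reads in replicate 1 and 655 in replicate 2, while Cox5b, a subunit of cytochrome c oxidase with 94.4% identity, had 711 and 2558. Rps27rt had 42 and 154 reads, beside 175 and 671 for Rps27, a ribosomal protein gene. Gm2000 had 25 and 100 reads, beside 406 and 1602 for Rpl35. Sap18b had 44 and 111 reads, beside 47 and 149 for Sap18, a corepressor subunit. In Rpl10-ps3 the copy held more than the spliced gene, with 84 reads in replicate 1 and 174 in replicate 2 beside 6 and 27 for Rpl10. Amd2 had 83 and 65 reads, beside 65 and 59 for Amd1, an enzyme of polyamine synthesis, and was higher in replicate 1, but not past the threshold under TMM or DESeq2 factors. AK157302 had 39 and 30 reads, beside 338 and 334 for Isca1, an iron-sulfur assembly factor. The counts of each such pair depend on how near-identical reads were assigned, and are uncertain for both members.

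Ribosomal protein-like genes had 5 of 7 intronless members found, with 123 CPM in replicate 1 and 249 CPM in replicate 2, and of 4 tested 0 were higher, 2 were lower and 2 did not pass (3 lower under TMM and DESeq2 factors). Unnamed gene models with Gm or Rik symbols had 59 of 430 found, with 439 and 1000.9 CPM, and of 19 tested 1 was higher, 8 were lower and 10 did not pass. For these 19 TMM gave 0 higher and 11 lower, and DESeq2 factors gave 0 and 10. Over all tested models 31.2% were higher and 15.1% lower. The shares were 20.6% and 22.9% under TMM, and 20.4% and 20.9% under DESeq2 factors.

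Reads of intronless genes were nearly all on the annotated single-exon models. These held 98.8% of the genes' reads in replicate 1 and 98.9% in replicate 2 (mean 98.8% ± 0.105, SD, n = 2). The rest included reads on models of more than 1 exon, 62 in replicate 1 and 41 in replicate 2. They lay over 42 genes, of which 9 had such reads in both libraries. In replicate 1 these 62 were all of the remaining reads, and 46 of them were genomic reads. In replicate 2 the remaining reads numbered 76, of which 28 were genomic. Fem1a had 9 and 8 reads on models of more than 1 exon, beside 286 and 219 reads on its annotated model.

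In mixed genes the spliced models dominated. Single-exon models held 2.08% of the genes' reads in replicate 1 and 3.33% in replicate 2, a mean of 2.71% ± 0.883 (SD, n = 2). Over the 142 mixed genes with 50 or more reads the median share was 1.35% in replicate 1 and 2.62% in replicate 2, and it was higher in replicate 1 in 39 genes, higher in replicate 2 in 98 and equal in 5. The mean share of the 2 libraries was up to 10% in 107 genes, over 10% to 50% in 25, over 50% to 90% in 2, and over 90% in 8.

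In the 8 genes over 90% most reads lay on the single-exon model. Smim10l1 (chromosome 6, 133104909 to 133107750) had 174 of 179 reads on it in replicate 1 and 211 of 219 in replicate 2, or 143 and 136 CPM. Kcnj11, the pore subunit of the ATP-sensitive potassium channel of muscle (chromosome 7, 46097096 to 46100237), had 93 of 105 and 218 of 225 reads, or 76.5 and 141 CPM, and was lower in replicate 1 (log2 ratio -0.87 ± 0.18). Prob1 had 78.1 CPM in replicate 1 and 13.6 CPM in replicate 2 on its main model and was higher in replicate 1 (log2 ratio 2.44 ± 0.35). Cebpd, a C/EBP factor, had all of its 40 and 44 reads on the single-exon model and did not pass. H2afj, a histone H2A variant with 23.9 and 49.7 CPM, was lower in replicate 1, and Atxn7l3b (18.9 and 21.3 CPM) did not pass. Emb is the gene of a chaperone of monocarboxylate transporters, but its model Emb-202 is annotated as retained_intron. This model had 17.3 and 18.1 CPM and did not pass. Ftl1-ps1, with 181 CPM in replicate 1 and 347 CPM in replicate 2, is near-identical to the ferritin light chain gene Ftl1, so its counts are uncertain.

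**Figure D3:**
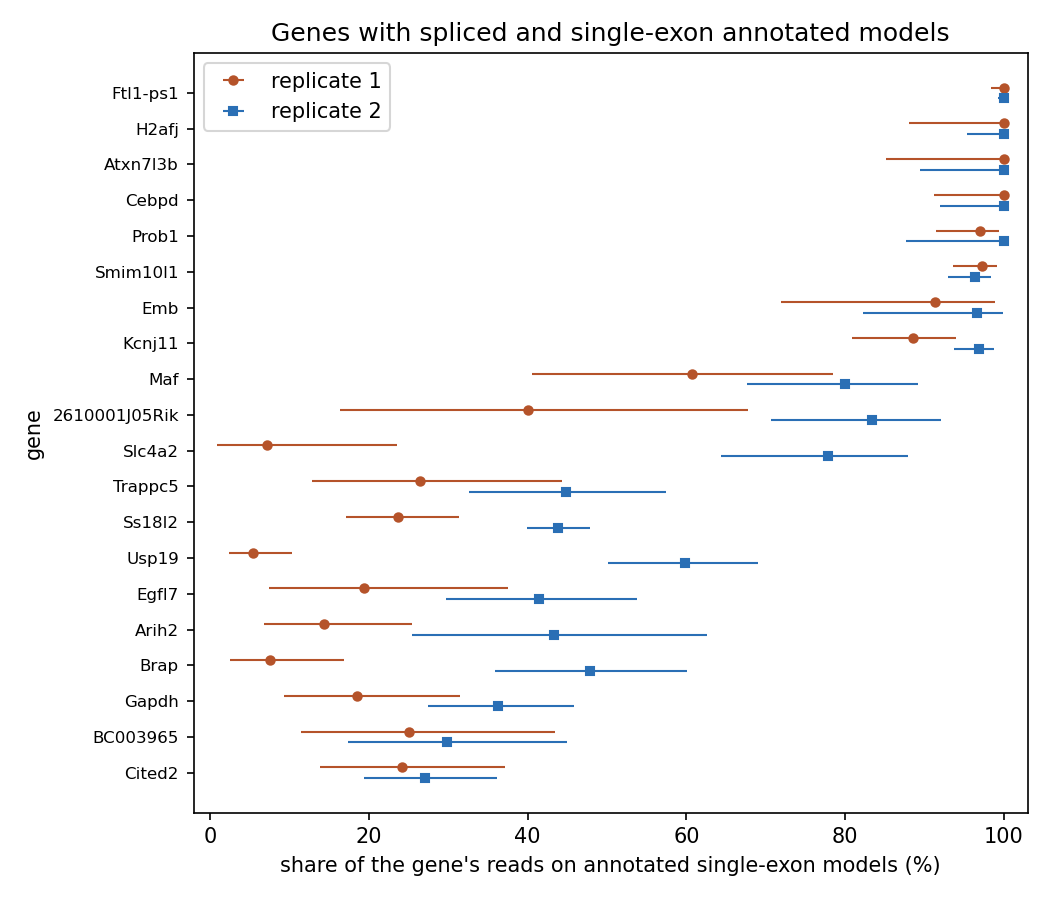
Share of each gene's reads on annotated single-exon models in replicate 1 (circles) and replicate 2 (squares), with 95% Clopper-Pearson intervals, for the 20 mixed genes with 50 or more reads and the highest mean share. The upper 8 genes lie at 88.6% or more in both libraries, whereas Usp19 lies at 5.37% in replicate 1 and 59.8% in replicate 2.

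Single-exon models annotated as retained_intron had lower levels in replicate 1 in most of the tested cases that passed. Of 2186 annotated in mixed genes 262 were found, with 423 reads in replicate 1 and 1301 in replicate 2, and 35 were tested. Of these 1 was higher in replicate 1, 20 were lower and 14 did not pass, beside 31.2% higher and 15.1% lower over all tested models, with a median log2 ratio of -1.86. The 27 tested protein_coding models of mixed genes gave 2 higher, 8 lower and 17 not past, with a median of -0.16. Under TMM the counts were 1 and 22 for retained_intron and 2 and 9 for protein_coding models. By length the retained_intron medians were -0.73 (n = 3), -2.00 (n = 7), -1.94 (n = 11) and -1.75 (n = 14), from the shortest range to the longest. Genomic reads of mixed genes made up 3.57% of their reads in replicate 1 and 10.4% in replicate 2, and the part of this difference in the retained_intron counts was not tested. The difference between the biotypes itself was not tested.

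Ss18l2-207 (chromosome 9, 121710467 to 121712820) was the most abundant of them, with 35 reads or 28.8 CPM in replicate 1 and 275 reads or 177 CPM in replicate 2 (log2 ratio -2.58 ± 0.26, adjusted p = 2.59e-34 by the exact test). It held 23.6% of the gene's reads in replicate 1 and 43.9% in replicate 2. Usp19-211, of a deubiquitinase gene (chromosome 9, 108500150 to 108501697), had 6.58 and 43.2 CPM, or 5.37% of the gene's reads in replicate 1 (2.35 to 10.3) and 59.8% in replicate 2 (50.1 to 69.0). Slc4a2-215, of an anion exchanger gene, had 2 and 42 reads and overlaps another annotated gene. Clns1a-203, of a gene for spliceosome assembly, had 3 and 28 reads, and Rpl36al-202, a protein_coding model of a ribosomal protein gene, had 2 and 23. Pgp-202, of a phosphatase gene, had 34 and 45 reads, Bhlhe40-204 had 11 and 8, and neither passed. Maf-202, the protein_coding single-exon model of a large Maf factor, had 14.0 and 31.0 CPM and was lower in replicate 1.

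Detected models carried the signal hexamer more often than undetected ones. AATAAA or ATTAAA, searched on the transcript's strand in the last 50 bases, was present in 199 of 285 detected intronless models (69.8%) and in 380 of 1104 undetected ones (34.4%). In protein_coding models of mixed genes it was present in 52 of 78 detected (66.7%) and 162 of 1355 undetected (12.0%), and in retained_intron models in 111 of 262 (42.4%) and 331 of 1924 (17.2%). Over all annotated single-exon models of coding genes the share was 24.7%, and over multi-exon protein_coding models it was 51.3%.

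**Figure D4:**
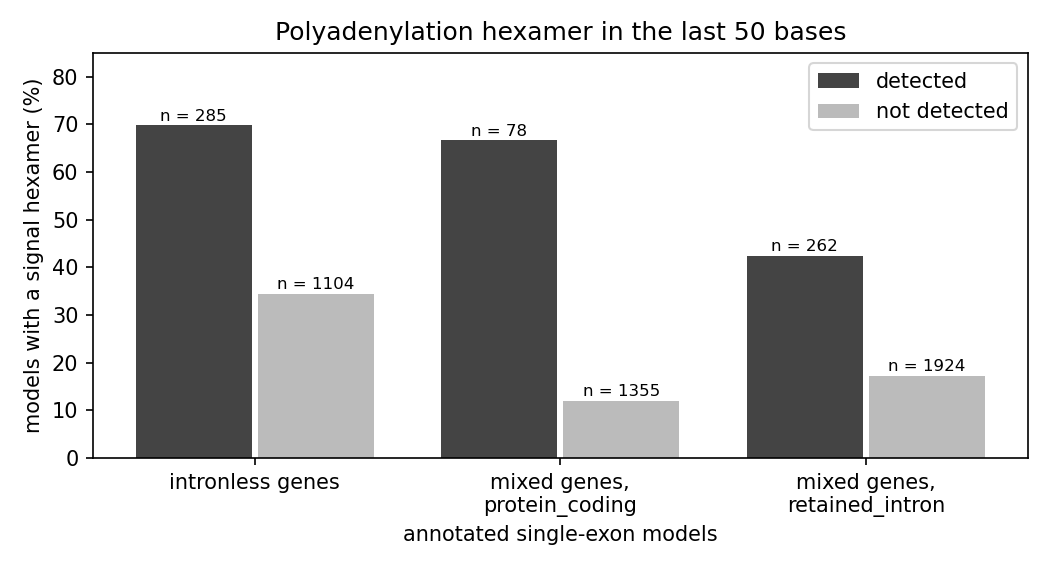
Share of annotated single-exon models with AATAAA or ATTAAA in the last 50 bases, for models with a read in either library (dark) and models with no read (light). The detected models are higher in all 3 sets, at 69.8% against 34.4% in intronless genes.

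The annotation of the 3′ end moved with this difference. A 3′ UTR of 50 bases or more is annotated in 92.3% of detected and 51.6% of undetected protein_coding models of intronless genes. Among those, 192 of 262 detected (73.3%) and 354 of 558 undetected (63.4%) held a hexamer. In mixed genes the same restriction left 51 of 73 detected (69.9%) and 104 of 382 undetected (27.2%). Detected intronless models were also longer, with a median of 2055 bases against 982, and their median GC content was 53.8% against 47.9% in protein_coding models. Of the protein_coding single-exon models detected in mixed genes 50 of 78 ended within 50 bases of the gene's annotated 3′ end, and of the retained_intron models 77 of 262 did.

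Many members share their place with another annotated gene on either strand, 121 of 285 intronless and 105 of 352 mixed models. No source used here says whether the assignment was stranded, so such counts are uncertain. Cebpb, Jund, Pcbp1 and Sephs2 are among them, whereas Fem1a, Lrrc30, Mafa, Rraga and Hspb3 are not. Without the overlapping members, 15 of 118 tested were higher in replicate 1 and 33 were lower, beside 31.2% and 15.1% of all tested models.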

How the data were processed

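Each library has 1 deposited table of whole read counts per transcript model, not normalised, and 1 annotation. Per the labels and the accompanying text, reads were assigned by TALON to GENCODE M21 on mm10; no source used here names the aligner. Members and gene lists were chosen with earlier results of these data known. Counts were divided by gene-assigned reads (CPM). Annotated models with 10 or more reads were compared by two-sided Fisher exact tests (SciPy 1.17.1, Benjamini-Hochberg, threshold 0.05), as 1 group of 2 libraries leaves no test of a condition, and ratios used a pseudocount of 1 CPM. Near-identical genes came from BLAST+ 2.17.0. Coding positions and gene ends came from M21. edgeR 4.0.16 and DESeq2 1.42.0 served for alternatives only. Named genes were the 12 most abundant per class, up to 3 per list, the 5 largest ratios each way, the 8 mixed genes with the highest single-exon share and the 6 intronless genes with most spliced reads. Not every gene meeting the rule is printed. Jun, Ier2, Hist3h2a, Hist1h1c, Hspa1a, Sf3b5 and the near-identical pairs were named after their values were seen. The test was checked on simulated counts that held counting error only, so the check does not cover other spread between libraries.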

Additional observations from a re-analysis of the deposited data

Results flagged for a closer look

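Reads on unannotated antisense models opposite the single-exon models lie outside the counts above, and no control sample gives their background. Opposite intronless members there were 95 such reads in replicate 1 and 708 in replicate 2. Opposite members of mixed genes there were 90 in replicate 1 and 557 in replicate 2. Klhl9 led with 22 antisense reads in replicate 1 and 292 in replicate 2, beside 30 and 5 on its own model, and overlaps the annotated gene Gm26566. Gm10031 had 16 and 257, Smim10l1 had 15 and 98, and Maf had 10 and 74. Of all mouse reads, antisense models held 1.70% for replicate 1 and 5.21% for replicate 2.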

How the results depend on the processing

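Of 56 alternatives over the main results, 35 left the value about the same, 20 moved it and 1 reversed it. About the same meant within the spread, within 1.5 times the count or, for the median log2 ratio, within a fixed margin. Reversed meant a change of sign of that median. For shares and lengths the spread was the SD of the 2 libraries, and either library alone always lies within it. Leaving out a library could therefore only add to the 35 for these results, and says nothing of their stability. The median log2 ratio of members (-0.18) reversed to 0.19 with reads of the whole gene, which called 180 of 416 genes. By class the whole-gene median was 0.08 over 141 intronless genes and 0.28 over 275 mixed genes. The main setting gave 0.07 over 138 intronless models and -0.94 over 63 mixed models. Single-exon models held only 2.08% of mixed genes' reads in replicate 1 and 3.33% in replicate 2, so this setting mostly counted other reads. The cause was not tested. The median of members moved to -0.31 with 20 or more reads, -0.33 with no minimum, -0.59 under TMM and -0.53 under DESeq2 factors. Without members that have a near-identical gene it was -0.040, a setting chosen after seeing the data, which called 64. The 84 calls became 48 without members that overlap another gene (fewer members tested), 39 in edgeR's exact test with a coefficient of variation of 0.2, and 0 with 0.4. With 0.4, 26 of 201 members (12.9%) had an unadjusted p under 0.05 by edgeR's exact test, beside 13.9% of all models, and 0.522% of all models passed after adjustment. Overlapping members left out moved the intronless share to 0.248%, the mixed share to 0.0841% and the intronless genes found in both libraries to 118. These values could only fall, as members were taken out while the library totals stayed the same. The same setting moved the mixed length to 2711 bases and the within-gene share to 1.61%. It moved the share of intronless genes' reads on their models to 98.7%. Reads on annotated models, a smaller denominator that could only raise the shares, gave 0.630% and 0.219%. Without the model with most reads the intronless share, which could only fall, was 0.398%, and the mixed length was 2801 bases. Models under 5 reads left out gave 97.3% of intronless genes' reads, which could only fall because all reads of the genes stayed in the denominator. Leaving out each library gave ranges of 0.410% to 0.450% for the intronless share, 0.113% to 0.189% for the mixed share, 2.08% to 3.33% within mixed genes, 98.8% to 98.9% within intronless genes, 226 to 249 intronless genes found, and lengths of 1744 to 2343 and 2373 to 2590 bases. No paired analysis was possible because there is 1 group. For the calls and the median ratio, leaving out a library leaves nothing to compare. Depth limits single genes: 119 of 227 mixed models in replicate 1 and 128 of 276 in replicate 2 rested on 1 read.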
